A study of Saccharomyces cerevisiae with 6 samples.

Results

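The binding clusters of Thp1 and Sac3 outside chromosome IV were compared boundary by boundary. A binding cluster is a stretch of DNA that the authors called as bound by a protein, given by its chromosome, start and end. The comparison took every row of the Thp1-FLAG list and of the Sac3-FLAG list except those on chromosome IV, which left 2009 Thp1 clusters and 1998 Sac3 clusters, or 4007 of the 4767 in both lists and of the 11869 in all 3 lists analyzed. A Thp1 and a Sac3 cluster were taken as partners if 1 bp or more lay in both. Chromosome IV, where the numbers differed most between the lists (476 Thp1 and 284 Sac3 clusters), is given below only for comparison.

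The clusters came from ChIP-chip, in which DNA crosslinked to a tagged protein is recovered with an antibody and read on a tiling microarray. Thp1 was analyzed in the strain THP1-FLAG (THP1::FLAG::KanMX) and Sac3 in the strain SAC3-FLAG (SAC3::FLAG::KanMX). Apart from the tagged gene the strains share 1 listed genotype, MATa with the marker alleles trp1-1, ura3-1, ade2-1 and his3-11,15, a leu2 allele and can1-100. Both were asynchronous cultures in YPD in mid-log phase, the antibody was anti-FLAG M2, and the comparison was with input DNA of the same strain. A list of Rrm3-FLAG in the sac3Δ strain S3RBb-5B was also used. It carries Rrm3::FLAG, sac3::KanMX, bar1Δ and, in place of ura3-1, ura3::URA3/GPD-Tk(7x). Its sample label gives the other marker alleles as above, whereas the strain list of the study does not give trp1-1 for its parent. The Rrm3 list was read as holding 2 repetitions together, as the methods describe. The 2 Rrm3-FLAG thp1Δ samples were not used here. There was 1 array experiment per TREX-2 protein, and no untagged strain was analyzed here. Therefore differences between Thp1 and Sac3 have no replicate spread to be judged by, and the strain, the array and the protein cannot be told apart. The number of arrays limits the precision. Intervals are at 95% and cover counting over clusters only, and neighboring clusters are not independent.

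Thp1 and Sac3 are subunits of TREX-2, a complex that links transcribed genes with the nuclear pore and with the export of mRNA. Sac3 is the scaffold of the complex. Thp1 and the small protein Sem1 sit on Sac3 and help it to contact RNA, while Sus1 and Cdc31 hold on to another region of Sac3, through which the complex reaches the pore. Rrm3 is a helicase of the replication fork that helps it past proteins bound to DNA. The lists name no genome build, so positions are printed as in the lists, counted from 1, and no cluster was assigned to a gene. Start and end mean the lower and the higher coordinate, without regard to the strand of any gene.

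Both lists were dominated by short clusters. The Thp1 clusters had a median length of 264 bp (quartiles 169 to 473 bp), and the Sac3 clusters one of 280 bp (quartiles 179 to 526.8 bp). Clusters under 300 bp, the resolution stated for the array, made up 58.1% of the Thp1 list and 54.5% of the Sac3 list. Thp1 clusters covered 10.6% and Sac3 clusters 11.2% of the 10537175 bp spanned by the 15 chromosomes. They had 984209 bp in common, which was 88% of all Thp1 bases and 83.1% of all Sac3 bases.

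Of the 2009 Thp1 clusters, 1684 had a Sac3 partner (83.8%, exact binomial interval 82.1 to 85.4%), where the share over all 16 chromosomes was 78.6%. Of the 1998 Sac3 clusters, 1646 had a Thp1 partner (82.4%, 80.6 to 84%), where the share over all 16 chromosomes was 84.4%. The all-chromosome shares contain the same clusters, so leaving out chromosome IV brought the shares of both lists close to each other. The partners formed 1628 groups, and 1565 of these (96.1%) were exactly 1 Thp1 cluster on 1 Sac3 cluster. In 47 groups several Thp1 clusters lay on 1 Sac3 cluster, in 16 groups several Sac3 clusters lay on 1 Thp1 cluster, and 0 groups had several of both. On their own were 325 Thp1 and 352 Sac3 clusters.

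The share of clusters with a partner was higher for longer clusters in both lists. Of Thp1 clusters of 100 bp to under 150 bp, 58.8% had a Sac3 partner (213 of 362), and of those of 500 bp to under 1 kb, 97.1% (297 of 306). Of Sac3 clusters of 100 bp to under 150 bp, 52.8% had a Thp1 partner (168 of 318), and of those of 500 bp to under 1 kb, 95.7% (308 of 322). From 1 kb upward, 172 of 172 Thp1 clusters and 208 of 209 Sac3 clusters had one. A longer cluster offers more bases to meet another by position alone, and how much of this trend that accounts for was not tested.

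The boundaries of one-to-one pairs lay close together. The start of the Thp1 cluster and that of its Sac3 partner differed by a median of 20 bp in either direction (interval 20 to 22 bp, quartiles 8 to 56 bp, n = 1565 pairs). The ends differed by a median of 20 bp (20 to 23 bp, quartiles 8 to 50 bp) and the midpoints by 16.5 bp (16 to 18 bp, quartiles 6 to 41 bp). Starts were within 25 bp in 56.5% of pairs, within 50 bp in 73.4%, within 100 bp in 87.3% and within 300 bp in 96.4%. For the ends these shares were 56.4%, 75.1%, 87.7% and 96.8%. Most offsets were thus far below the stated resolution of 300 bp. The distances had an upper limit set by the pairing itself, since midpoints of clusters that share a base cannot be farther apart than the mean of both lengths. The largest start offset was 768 bp, the largest end offset 865 bp and the largest midpoint distance 466.5 bp.

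The offsets moved in steps. Of the 3130 start and end offsets, 423 were exactly 0, 0 were 1 to 3 bp, and the smallest above 0 was 4 bp (316 offsets). Then followed 8 bp (248), 12 bp (205), 16 bp (153) and 20 bp (151). Of the 1990 offsets above 0 and under 60 bp, 1563 (78.5%) were multiples of 4 bp. The median offset of 20 bp therefore equaled 5 of these steps.

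**Figure D1:**
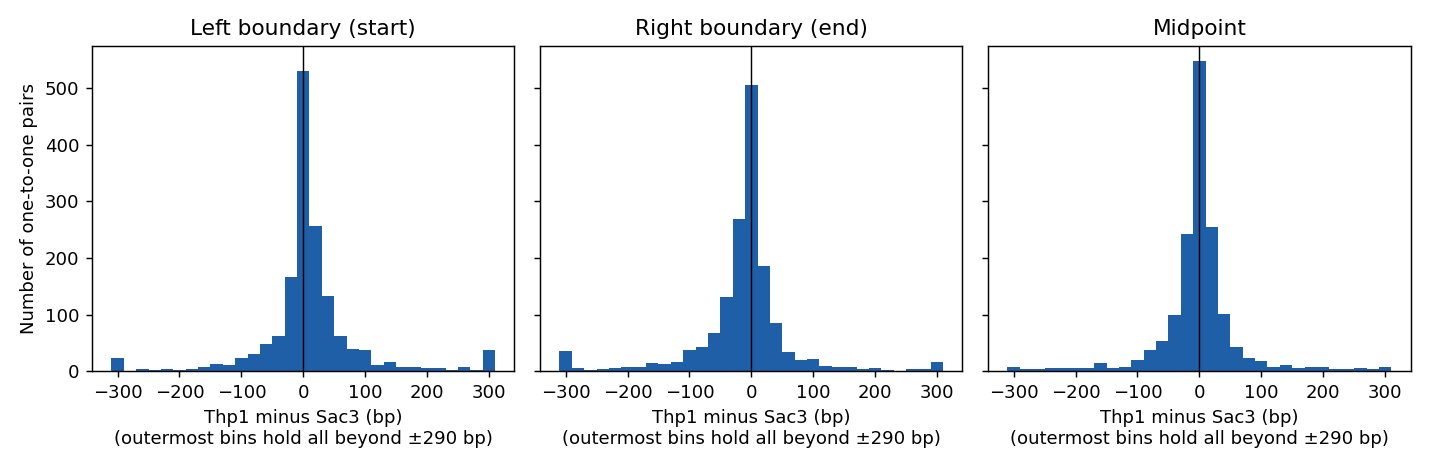
Offsets of the 1565 one-to-one pairs, as Thp1 minus Sac3 in bp (x axis, bins of 20 bp), against the number of pairs (y axis), for the start, the end and the midpoint. The outermost bins collect everything farther out, and all 3 distributions peak at 0, with the start leaning to positive and the end to negative values.

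The Thp1 cluster was more often the shorter one, and it lay inside its Sac3 partner more often than the reverse. Its start lay to the right of the Sac3 start in 806 pairs, at the same base in 213 and to the left in 546. Its end lay to the left of the Sac3 end in 815 pairs, at the same base in 210 and to the right in 540. The signed median was 4 bp for the start (interval 0 to 4 bp), -4 bp for the end (-4 to 0 bp) and 0 bp for the midpoint (-2 to 0 bp), so that both boundary intervals reached 0. In 726 pairs (46.4%) the Thp1 cluster lay inside the Sac3 cluster, in some with 1 boundary in common, in 421 (26.9%) the Sac3 cluster lay inside the Thp1 cluster, and in 31 both boundaries were the same. In the rest the clusters were staggered, with Thp1 shifted to the left in 195 pairs and to the right in 192. Staggered pairs thus had no preferred side.

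In length, the Thp1 cluster was longer in 584 pairs (37.3%), the same in 54, and shorter than the Sac3 cluster in 927 (59.2%). The median of Thp1 length over Sac3 length was 0.968 (interval 0.96 to 0.977), with 5% to 95% of the pairs between 0.5 and 1.66. Over the pairs the Thp1 cluster had a median length of 286 bp and the Sac3 cluster one of 304 bp. The lengths were within 100 bp of each other in 1161 pairs, while Thp1 was longer by more than 100 bp in 143 and Sac3 in 261. Across pairs the log10 lengths had a Pearson r of 0.9 and the lengths a Spearman rho of 0.823 (n = 1565 pairs, which share the array design and the selection for overlap). The bases in common made up a median of 83.9% of the bases covered by either partner (quartiles 68 to 93.2%).

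**Figure D2:**
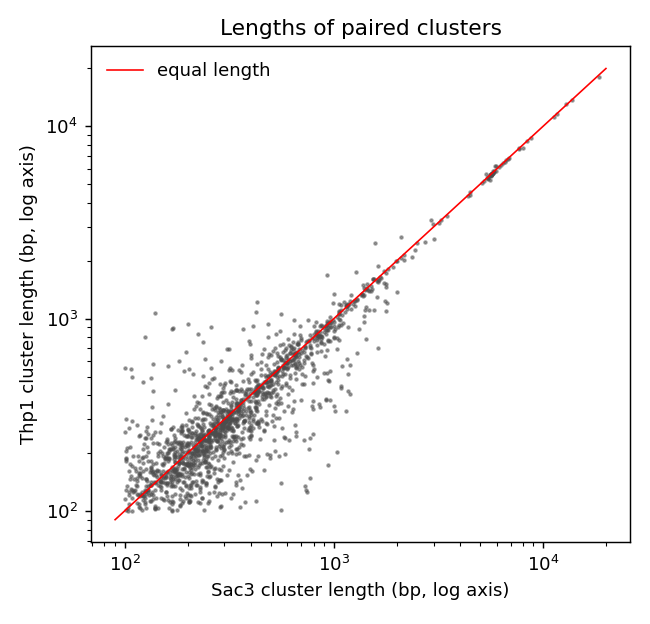
Length of the Thp1 cluster (y axis, bp, log scale) against the length of its Sac3 partner (x axis, bp, log scale), 1 point for each of the 1565 one-to-one pairs, with the line of equal length. Points scatter widely below 1 kb and close up on the line at the longest clusters.

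Large offsets were mostly at 1 boundary. In 355 pairs (22.7%) at least 1 boundary differed by more than 100 bp, and in 36 (2.3%) both did. The start was off by more than 100 bp with the end within 25 bp in 92 pairs, of which Thp1 was longer in 44 and Sac3 in 48. The end was off by more than 100 bp with the start within 25 bp in 89 pairs, of which Thp1 was longer in 29 and Sac3 in 60. Both boundaries were within 25 bp in 537 pairs (34.3%).

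Median offsets were 12 to 28 bp in every length class under 5 kb, so that long pairs matched more closely in proportion to their length. Pairs with a mean length under 200 bp (n = 374) had median offsets of 12 bp at the start and 16 bp at the end. Pairs of 400 bp to under 1 kb (n = 413) had 28 bp at both, and pairs of 1 kb to under 5 kb (n = 104) had 25 bp and 24.5 bp. The length ratio was 0.961, 0.968 and 0.986 in these classes. The 46 pairs of at least 5 kb had median offsets of 4.5 bp at the start and 18 bp at the end with a ratio of 0.997. Their starts were the same in 20 pairs and their ends in 12, and 21 of the 46 had both boundaries within 25 bp. Part of the same starts, as on II, V, VI, VIII, X, XII and XIII, lay at base 13, the lowest start in either list. At such an edge a same boundary can be forced, and these pairs were not set apart. Of these 46 pairs, 30 lay more than 20 kb from a chromosome end.

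The 5 longest pairs with the same start and the same end were of 2 kinds, at base 13 and farther in. The longest lay at VII:811598-823208 and measured 11611 bp in both lists. Next came X:13-6893 (6881 bp) and V:13-6343 (6331 bp), which begin at the first base that any cluster of these lists reached. In each list 12 clusters, each on its own chromosome, began at base 13. The pair XIII:184315-189953 measured 5639 bp and the pair VI:53209-54396 measured 1188 bp. Within 20 kb of a chromosome end the 112 pairs had median offsets of 8 bp at the start and 12 bp at the end, against 20 bp at both in the 1453 pairs farther in. The length ratio was 0.996 near the ends and 0.965 farther in. Pairs that start at base 13 were kept in the values near the ends.

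The 5 pairs with the largest midpoint distance were of several shapes. At I, Thp1 228759-229984 reached 865 bp farther to the right than Sac3 228691-229119, which put the midpoints 466.5 bp apart. At XVI, Thp1 898320-898492 stopped far short of the end of Sac3 898328-899269 (end offset -777 bp). At V, Thp1 67326-69791 contained the whole of Sac3 67379-68954 and went on for 837 bp. At IX, Thp1 248963-249900 and Sac3 249700-249900 ended on the same base, with a start offset of -737 bp. At XI, Thp1 337397-337849 and Sac3 337696-338283 were staggered, with 154 bp in common.

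The limit of 1 bp decided few pairs. The smallest overlap of a one-to-one pair was 20 bp, at XV, between Thp1 411692-411912 and Sac3 411344-411711, and the next were 25, 33, 41 and 42 bp. Only 6 pairs had 50 bp or less in common. On the other side of the limit, the smallest distance from a cluster without a partner to the other list was 3 bp. It was found at XV, between Thp1 515831-515969 and Sac3 515973-516214. The next distances were 107, 212, 225 and 237 bp, and in the last of these the Sac3 cluster had another Thp1 cluster as its partner.

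Chromosome by chromosome, Thp1 clusters were similar to or slightly shorter than their Sac3 partners. The median length ratio of Thp1 over Sac3 was between 0.94 on chromosome X and 1.01 on chromosome VI, and it was below 1 on 14 of the 15 chromosomes. Sac3 was the longer partner more often than Thp1 on 14 of 15. On 6 of the 15 the interval of the ratio ended below 1. The median offsets per chromosome were 16 to 32 bp at the start and 12.5 to 28 bp at the end. The median midpoint distance was 14.5 bp on chromosome XI, the smallest, and 21 bp on chromosome VI, the largest.

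Chromosome IV went the other way. Its 255 one-to-one pairs had a median ratio of 1.25 (interval 1.2 to 1.32), and Thp1 was the longer partner in 219 of them (85.9%). The Sac3 cluster lay inside the Thp1 cluster in 205 pairs (80.4%) and the Thp1 cluster inside the Sac3 cluster in 18. The signed medians were -35 bp at the start and 24 bp at the end, so that Thp1 reached outward on both sides. The median midpoint distance was 20 bp there, against 16.5 bp on the other chromosomes. Only 1 group on IV had Thp1 in pieces on a Sac3 cluster, and 11 had Sac3 in pieces on a Thp1 cluster. With no replicate list, no test of this difference was possible.

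**Figure D3:**
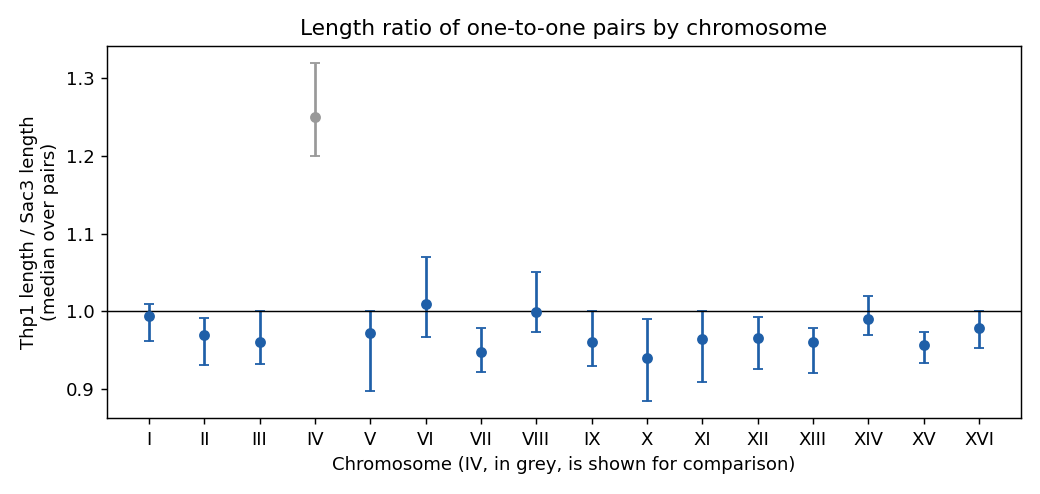
Median ratio of Thp1 length to Sac3 length over one-to-one pairs (y axis) for each chromosome (x axis), with order-statistic intervals at 95% as bars and a line at 1. The 15 chromosomes outside IV, in blue, lie between 0.94 and 1.01, and IV, in grey, lies at 1.25.

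Groups with several clusters on 1 were mostly Thp1 in pieces, with 47 such groups against 16 of Sac3 in pieces. With clusters under 500 bp apart joined these were 32 against 21, and with clusters of at least 300 bp 14 against 8. The 47 Sac3 clusters that held several Thp1 clusters had 103 pieces in all, with 2 pieces in 40 of them, 3 in 5 and 4 in 2. The 16 Thp1 clusters that held several Sac3 clusters had 34 pieces, with 2 pieces in 14 and 3 in 2. Thp1 in pieces outnumbered the reverse on 11 of the 15 chromosomes and was outnumbered on 2. The most were 9 such groups on XI and 9 on XII, and the most of the reverse were 4 on IX. The undivided clusters were long, with a median of 1374 bp for the 47 Sac3 clusters and 1725 bp for the 16 Thp1 clusters.

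The gaps between pieces were mostly near the shortest the cluster rule allows. Since stretches up to 250 bp apart were joined by the authors, no gap can be under 251 bp. The 56 gaps between Thp1 pieces measured 251 to 1118 bp with a median of 324.5 bp, and the 18 gaps between Sac3 pieces measured 251 to 605 bp with a median of 316 bp. Of all 244 Thp1 gaps under 500 bp, a Sac3 cluster bridged 21.3%, and of the 48 gaps up to 300 bp it bridged 43.8%. Of all 223 Sac3 gaps under 500 bp, a Thp1 cluster bridged 6.73%, and of the 47 up to 300 bp it bridged 14.9%. From 500 bp upward the shares were 0.229% of 1750 Thp1 gaps and 0.17% of 1760 Sac3 gaps.

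The groups with the most pieces show the geometry. Sac3 had 1 cluster at XI:101545-106694 (5150 bp), where Thp1 had 4, at 101729-102305, 102586-103400, 103813-105630 and 106011-106670, with gaps of 280, 412 and 380 bp. At XII:470713-473427 (2715 bp) Sac3 had 1 cluster and Thp1 again 4, of 860, 244, 227 and 141 bp. At II:29351-35490 (6140 bp) Thp1 had 3 pieces, of 102, 3750 and 1338 bp, under 1 Sac3 cluster. In all 3 cases the pieces spanned most of the undivided cluster. In the reverse direction, Thp1 had 1 cluster at IX:17841-21284 (3444 bp), where Sac3 had 3, of 1008, 995 and 219 bp, with gaps of 484 and 570 bp. Thp1 also had 1 cluster at IX:205323-207771 (2449 bp), where Sac3 had 3, of 435, 1253 and 188 bp, and the first Sac3 gap there, of 251 bp, was the shortest the rule allows. The third case was Thp1 I:69805-70832 (1028 bp) over 2 Sac3 clusters of 269 and 367 bp.

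Clusters without a partner were short. Their median length was 158 bp for Thp1 and 162 bp for Sac3, where clusters with a partner had 290 bp and 314.5 bp. Under 300 bp were 88.6% of the Thp1 and 86.9% of the Sac3 clusters on their own. Together they held 5.67% of the Thp1 bases and 6.05% of the Sac3 bases. The closest cluster of the other list was a median of 1549 bp away for Thp1 and 1590.5 bp for Sac3. It was within 250 bp for 5 clusters of each list, and within 1 kb for 112 Thp1 and 117 Sac3 clusters. The authors joined stretches up to 250 bp apart, and how far that lowers the number of close cases was not tested. The longest Thp1 clusters on their own were III:150193-151167 (975 bp), XI:647335-648129 (795 bp) and XIV:309205-309880 (676 bp). The longest Sac3 clusters on their own were XV:1029975-1030979 (1005 bp), XV:541265-542103 (839 bp) and VI:268958-269744 (787 bp). The last of these was 31327 bp from the nearest Thp1 cluster, the farthest of all Sac3 clusters without a partner. It lay close to the right end of the span of VI (269887 bp), so nearly all of the chromosome was on 1 side of it.

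The spacing between neighbors was close in both lists. The gap from the end of a cluster to the start of the next had a median of 2702 bp for Thp1 (interval 2507 to 2884 bp, n = 1994 gaps) and 2664 bp for Sac3 (2502 to 2835 bp, n = 1983). The quartiles were 1002.5 and 6392.8 bp for Thp1, and 1027 and 6235 bp for Sac3. Gaps of 1 to 5 kb were the most common class, with 43.3% of the Thp1 and 44.6% of the Sac3 gaps. Gaps of 10 kb or more were 13.5% of the Thp1 and 13.2% of the Sac3 gaps and held 45.5% of all gap bases in each list. Both lists thus had close neighbors and long empty stretches, and whether this differs from random placement was not tested.

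**Figure D4:**
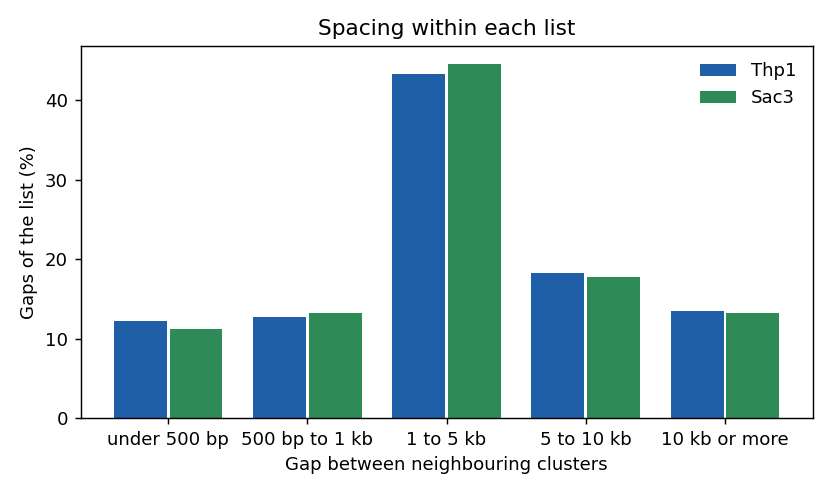
Share of the gaps between neighboring clusters of a list (y axis, percent of 1994 Thp1 gaps and 1983 Sac3 gaps) in 5 classes of gap length (x axis), Thp1 in blue and Sac3 in green. The classes differ between the lists by little, and 1 to 5 kb holds the most in both.

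Many gaps were the same gap. In 1062 cases, 53.3% of the Thp1 and 53.6% of the Sac3 gaps, the gap was flanked in both lists by the same 2 one-to-one pairs. Thp1 and Sac3 then differed by a median of 46 bp in gap length (interval 41 to 49 bp), and 73.7% were within 100 bp. The Thp1 gap was the wider one in 637 cases and the Sac3 gap in 390, with a signed median of 13.5 bp. Wider Thp1 gaps and shorter Thp1 clusters are the same boundaries seen from both sides, and so are not separate observations. Pairs followed each other without a cluster of other kind between them in 503 runs, with a median of 2 pairs. The longest runs had 15 pairs over 49.7 kb at XII:506604-556293, 14 pairs over 37.8 kb at XV:62276-100033, and 13 pairs over 66.3 kb at XIII:762312-828653.

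The longest empty stretches were partly shared. The third longest of each list met at XIII, where Thp1 had no cluster in 307425-347569 (40145 bp) and Sac3 none in 307264-348813 (41550 bp). The Sac3 stretch was touched by 3 Thp1 clusters, 1 of them wholly inside. The second longest met at XIV, with 726509-769876 for Thp1 (43368 bp) and 726509-768688 for Sac3 (42180 bp), which began on the same base. In the Thp1 stretch 1 Sac3 cluster lay near the right end. The longest were not shared as wholes. Thp1 XVI:197651-242488 (44838 bp) had 1 Sac3 cluster wholly inside, and Sac3 XIV:150322-196810 (46489 bp) had 3 Thp1 clusters inside.

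Density was read in 97 full windows of 100 kb, with each cluster counted where its midpoint lay. The median was 19 clusters per window in both lists, with a range of 7 to 34 for Thp1 and 7 to 32 for Sac3 (SD over windows 4.75 and 4.84). Thp1 had more clusters in 40 windows, the same number in 11 and fewer than Sac3 in 46. The numbers were within 2 of each other in 55 windows and within 5 in 86. Per chromosome, Thp1 had 15.6 (VI) to 27.4 (I) clusters per 100 kb and Sac3 15.8 (XI) to 25.2 (I).

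The Pearson r was higher for the bases covered than for the number of clusters. Over the 97 windows the numbers of Thp1 and Sac3 clusters had a Pearson r of 0.742 and a Spearman rho of 0.734, whereas the bases covered had a Pearson r of 0.983. The windows share the array design and their chromosomes, and these values are descriptions. No rank correlation of the bases was computed. Bases per window were skewed, with maxima of 33305 bp for Thp1 and 41396 bp for Sac3 against medians of 7851 bp and 8444 bp. The weight of a few long clusters in the r of the bases was not tested. The largest difference in number, 10 clusters, was found in 2 windows. At XII:400001-500000, Thp1 had more clusters but fewer bases, with 34 clusters over 33305 bp, against 24 Sac3 clusters over 41396 bp. At XV:900001-1000000, the other one, Thp1 had 25 clusters and Sac3 15, with 11138 bp and 11089 bp covered. At XVI:400001-500000 Thp1 had 18 and Sac3 26, with 9057 bp and 8444 bp.

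Windows were also ranked by the clusters of both lists together, a ranking that itself favors windows where both are high or both are low. The window with the most clusters of both together was XIII:200001-300000, with 30 Thp1 and 32 Sac3 clusters, followed by the window on XII above and I:100001-200000, with 26 and 28. The fewest were at X:300001-400000, with 8 Thp1 and 9 Sac3 clusters, X:500001-600000, with 7 and 13, XII:600001-700000, with 12 and 8, and, equal in total with the last 2, XIII:400001-500000, with 13 and 7. The window with the fewest Thp1 clusters (X:500001-600000) was thus not the one with the fewest Sac3 clusters (XIII:400001-500000). The window XII:600001-700000 was sparse in number only, with 11271 bp of Thp1 and 11354 bp of Sac3 clusters, above the medians of 7851 bp and 8444 bp per window.

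**Figure D5:**
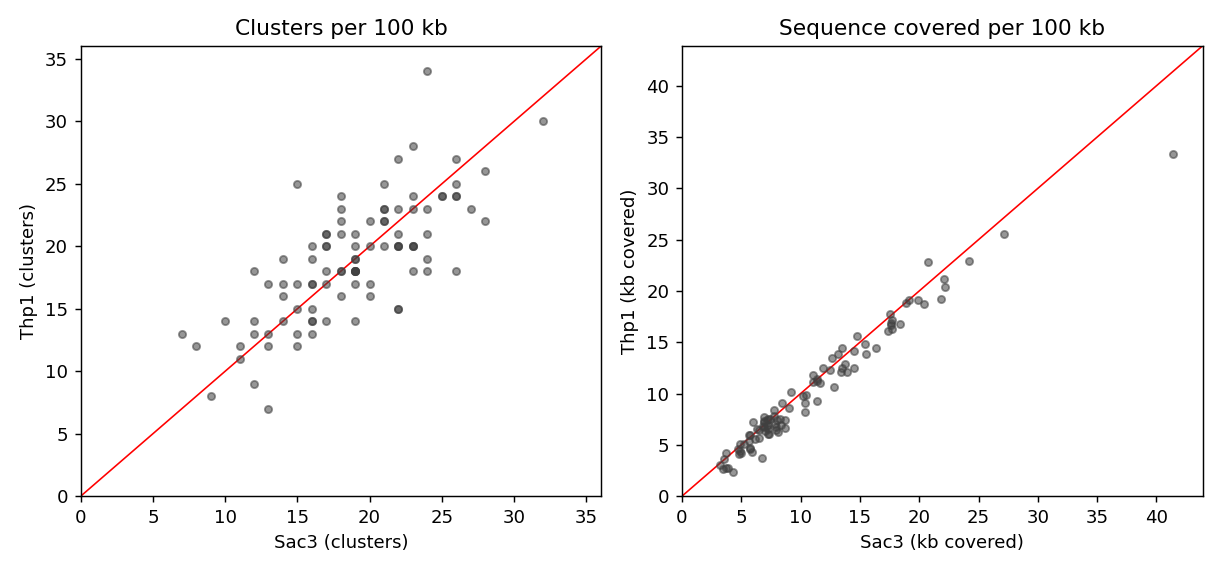
Thp1 (y axis) against Sac3 (x axis) in 97 windows of 100 kb, as clusters per window on the left and kb covered per window on the right, with lines of equal value. Points spread around the line on the left, with an r of 0.742, and lie close to it on the right, with an r of 0.983.

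Offsets were smaller between Thp1 and Sac3 than between either and Rrm3, whose clusters were longer. Over 1364 one-to-one pairs of Thp1 with Rrm3 in sac3Δ cells, the start differed by a median of 209 bp, the end by 154 bp and the midpoint by 121 bp. Over 1358 such pairs of Sac3 with Rrm3, the values were 212.5, 152.5 and 119.8 bp. These midpoint distances depended on the pairing. For Thp1 with Rrm3 the midpoint distance was 52.5 bp with at least 50% of both partners in common and 241 bp with clusters under 500 bp apart joined, and for Sac3 with Rrm3 it was 60 bp and 228 bp. For Thp1 with Sac3 it was 15 bp and 18.5 bp under the same settings. The Rrm3 clusters were longer, with a median of 893.5 bp in the pairs with Thp1 and 912.5 bp in those with Sac3 (455 bp over all 6187), and covered 43.6% of the span. The Thp1 cluster lay inside its Rrm3 partner in 94% of pairs, with a length ratio of 0.336, and the Sac3 cluster in 95.5%, with a ratio of 0.349. An Rrm3 partner was found for 98.8% of Thp1 clusters (1984 of 2009) and 99.6% of Sac3 clusters (1991 of 1998). These shares were above the 83.8% of Thp1 clusters with a Sac3 partner and the 82.4% of Sac3 clusters with a Thp1 partner. How far the wide Rrm3 coverage accounts for this was not tested. Several Thp1 clusters lay on 1 Rrm3 cluster in 260 groups and several Sac3 clusters in 278. Where 1 cluster lies inside the other, the start and end offsets add up to the difference in length. Longer Rrm3 clusters thus bring larger start and end offsets with them, and these are not separate observations. The part of the greater Rrm3 cluster length in the midpoint distances, and of the other strain in all these offsets, was not tested.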

How the data were processed

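ChIP-chip of Thp1-FLAG and Sac3-FLAG (1 array experiment each) and of Rrm3-FLAG in sac3Δ cells was performed on Affymetrix tiling arrays. The authors obtained a signal and a P-value for each probe from the Tiling Array Suite. They called a cluster where the IP/SUP ratio stayed positive and P stayed under 0.01 for at least 100 bp, bridging gaps of up to 250 bp. The deposited lists give only the position of each cluster (chromosome, start, end), and 0 value columns were left unmapped. Joining stretches in this way decides where a cluster splits, and hence numbers, offsets and gaps. Depth has no counterpart in these lists.

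Starts were counted from 1. Clusters of both lists sharing at least 1 bp were joined into groups. A chromosome's span was set to its highest cluster end in any list. Shares have exact Clopper-Pearson intervals and medians order-statistic intervals, both at 95%. No test between proteins was run. Regions were named by rank: the 5 pairs with the largest midpoint distance, the 5 longest pairs with equal boundaries, and the 3 most divided clusters, longest clusters without a partner, longest gaps and extreme windows of each kind. The pairs and gaps nearest to the 1 bp limit were also printed. The members and these rules were chosen with earlier results of these data known.

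Alternatives were clusters of at least 300 bp, chromosome IV kept, chromosome XII left out, the outer 20 kb of the chromosomes left out, at least 50% of each cluster in common, clusters under 500 bp apart joined, windows shifted by 50 kb and, added after the data had been seen, mutual largest overlaps. The pairing was tested on simulated lists. Python 3.11.15, numpy 2.4.6, scipy 1.17.1 and matplotlib 3.10.9 were used.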

Additional observations from a re-analysis of the deposited data

How the results depend on the processing

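Of the 67 values recomputed for the main results, 44 were scored as unmoved and 23 as moved. Shares and medians were unmoved if within the interval of the main value, and counts if within a set factor of it. By that factor, 1820 one-to-one pairs with chromosome IV kept were scored as unmoved against 1565. No change of direction was scored for shares, counts or medians. With clusters of at least 300 bp, 673 one-to-one pairs and 22 divided groups were left. A partner was found for 77.3% of Sac3 and 84.7% of Thp1 clusters. Shorter clusters were removed from both lists here, so longer ones lost any partner under 300 bp. In the full lists, 91.8% of Sac3 clusters of 300 bp to under 500 bp had a partner. In this setting offsets were 24 bp at the start, 24 bp at the end and 22 bp at the midpoint. Gaps were 6519.5 bp for Thp1 and 6359.5 bp for Sac3, and density was 8 per 100 kb for Thp1 and 8 for Sac3. With chromosome IV kept, 78.6% of Thp1 and 84.4% of Sac3 clusters had a partner, the Thp1 gap was 2427 bp, and the length ratio was 0.991. With 50% or more of both partners in common, 71.7% of Thp1 and 72.1% of Sac3 clusters had a partner, the start offset was 17 bp, the midpoint distance 15 bp, and divided groups 0, which follows from the rule itself. With clusters under 500 bp apart joined, the midpoint distance was 18.5 bp, gaps were 3375.5 bp for Thp1 and 3251.5 bp for Sac3, and density was 17 for Thp1 and 17 for Sac3. Pairs by mutual largest overlap, a choice made after seeing the data, gave 20, 20 and 18 bp for start, end and midpoint.

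No paired analysis was possible because each protein has 1 list and no result came from a test. For the same reason no replicate was left out. The spread of boundaries of 1 protein between arrays is unknown, and lists without signal give no height of binding.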
